A study of Mus musculus with 6 samples.

Results

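The insulin-like growth factor (IGF) genes described here are 6 IGF binding proteins (Igfbp2 to Igfbp7), the receptors Igf1r and Igf2r and the ligand gene Igf2. They were taken by gene symbol from the array's annotation, which gave 9 genes of the 30142 tested. Rows were selected on the highest mean level over the 6 arrays, which left nothing to choose, since each of the 9 genes had 1 row. The genes themselves were chosen by family, with earlier results of the same arrays known, so their counts are descriptions. The cells were F4/80+ macrophages of male C57BL/6J mice, taken from epididymal fat by collagenase digestion and immunomagnetic selection of the stromal vascular fraction. The HFD group received a diet with 60% fat and the NCD group normal chow, both for 16 weeks from 6 weeks of age until 22 weeks of age. Each group had 3 pools, of 10 mice each for HFD and 20 mice each for NCD, with 1 array per pool from 100 ng of total RNA. The pools are the replicates, and p-values measure the spread between pools, not between animals.

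IGF1 and IGF2 are secreted growth factors that signal through the receptor tyrosine kinase encoded by Igf1r. The binding proteins hold most IGF outside cells, lengthen its life and either withhold it from the receptor or present it there, and several of them also bind matrix. Igf2r encodes the cation-independent mannose 6-phosphate receptor, which does not carry an IGF growth signal: it takes IGF2 to the lysosome for breakdown and sorts newly made lysosomal enzymes. In fat, macrophages are a known source of Igf1, whereas binding proteins are typical products of vessel, mural, mesothelial and other stromal cells.

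Promoters are shown for the 3 of the 9 genes whose difference was called without each array in turn (Igf2r, Igfbp5 and Igfbp6), and for Gnptab, which had the largest rise among other genes of the sorting route. The sequences come from RefSeq (GRCm38.p6), which held 13 windows for the 9 genes, and are the 250 bases before the annotated start, read 5′ to 3′ on the gene's strand. Capitals mark CACGTG and TATAAA on either strand. Igf2r and Gnptab were higher after HFD, and Igfbp5 and Igfbp6 were lower.
Igf2r, chr17:12769707-12769956, minus strand: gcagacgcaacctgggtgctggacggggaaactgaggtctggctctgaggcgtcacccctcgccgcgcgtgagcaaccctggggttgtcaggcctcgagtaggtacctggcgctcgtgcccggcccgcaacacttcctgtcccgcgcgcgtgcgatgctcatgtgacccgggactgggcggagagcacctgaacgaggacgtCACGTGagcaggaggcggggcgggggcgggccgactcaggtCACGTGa
Gnptab, chr10:88379018-88379267, plus strand: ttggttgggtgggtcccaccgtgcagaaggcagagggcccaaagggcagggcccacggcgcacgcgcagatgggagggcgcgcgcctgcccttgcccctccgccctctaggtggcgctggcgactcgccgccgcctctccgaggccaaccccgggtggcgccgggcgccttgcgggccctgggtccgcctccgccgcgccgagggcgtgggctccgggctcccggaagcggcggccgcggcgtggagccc
Igfbp5, chr1:72874866-72875115, minus strand: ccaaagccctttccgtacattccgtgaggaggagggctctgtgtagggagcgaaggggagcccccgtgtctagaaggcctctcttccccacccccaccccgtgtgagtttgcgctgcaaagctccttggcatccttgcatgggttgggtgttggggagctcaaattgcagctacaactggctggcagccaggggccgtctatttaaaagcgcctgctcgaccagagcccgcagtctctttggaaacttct
Igfbp6, chr15:102143936-102144185, plus strand: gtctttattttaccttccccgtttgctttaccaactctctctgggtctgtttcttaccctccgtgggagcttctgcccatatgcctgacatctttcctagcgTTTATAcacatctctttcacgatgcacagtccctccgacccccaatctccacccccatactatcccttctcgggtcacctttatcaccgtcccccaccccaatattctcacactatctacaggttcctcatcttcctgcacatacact
The Igf2r window held 2 copies of CACGTG, starting 48 and 7 bases before the start, and the Gnptab window held none. Of all 32851 windows of this length, 6.02% held CACGTG, and so did windows of 2 of the 9 genes, Igf2r and Igfbp2. It was held by 2 of the 6 sorting genes with a window, Nagpa, which rose, and Gnptg, which was not called, while Gnptab, Gga1, Gga2 and Gga3 did not. TATAAA was found in the windows of Igfbp4, 28 bases before the start, and of Igfbp6, 148 bases before it and on the opposite strand, against 12.4% of all windows. The other motifs searched on both strands were GGGCGG (5 of 9 genes, 32.7% of windows), TGACTCA (1 of 9, 4.46%), GGAATG (2 of 9, 12.6%) and the CArG box (1 of 9, 1.47%). A gene was counted if any of its windows held the motif, and the 9 genes had 13 windows. Counts of genes and shares of windows are thus on different bases, for CACGTG and TATAAA too. The TGACTCA and CArG matches lay in window 2 of Igfbp2 and of Igf2, genes with several windows. Igfbp5 and Gnptab held neither of the capitalised motifs. These are matches of letters, not measured binding sites.

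All expression values are the authors' log2 values, so a difference of 1 is a factor of 2 (a fold change of 2 on the linear scale), and changes are HFD minus NCD with the standard error from limma. A gene was called when its p, adjusted over all 30142 genes, was below 0.05. Of the 9 genes, 5 were called lower (Igfbp4, Igfbp5, Igfbp6, Igf1r and Igf2), 1 was called higher (Igf2r) and 3 were not called (Igfbp2, Igfbp3 and Igfbp7). Over all genes, 2.87% were called lower, 4.96% higher and 7.83% either way. Of the 15747 genes with a mean above background, 4.59% were called lower, 8.73% higher and 13.3% either way, and these include all of the 9 but Igfbp2. Among called genes 63.3% were higher (78.8% with each array centred on its median). The values of the diets did not overlap in 7 of the 9 genes, 6 lower and 1 higher, whereas 30.6% of all genes had no overlap (13% lower and 17.6% higher). The median change of the 9 genes was −1.57, against 0.01 over all genes.

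**Figure D1:**
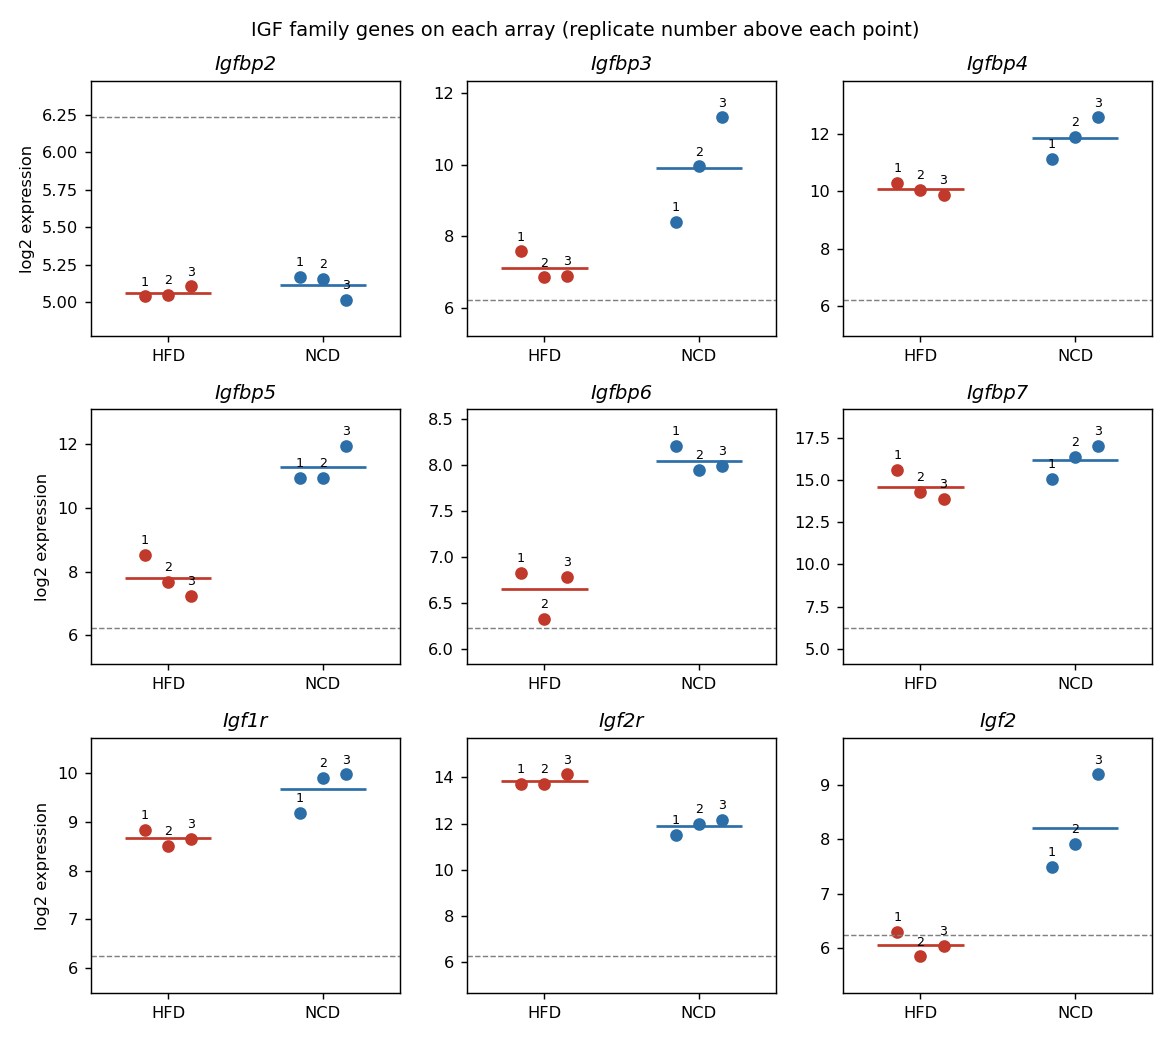
Log2 expression (y axis) of the 9 genes on each array, with HFD arrays in red, NCD arrays in blue, the replicate number above each point, a bar at each group mean and a dashed line at the background level of 6.23. HFD and NCD values overlap in Igfbp2 and Igfbp7, and Igf2r has all HFD values above all NCD values.

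**Figure D2:**
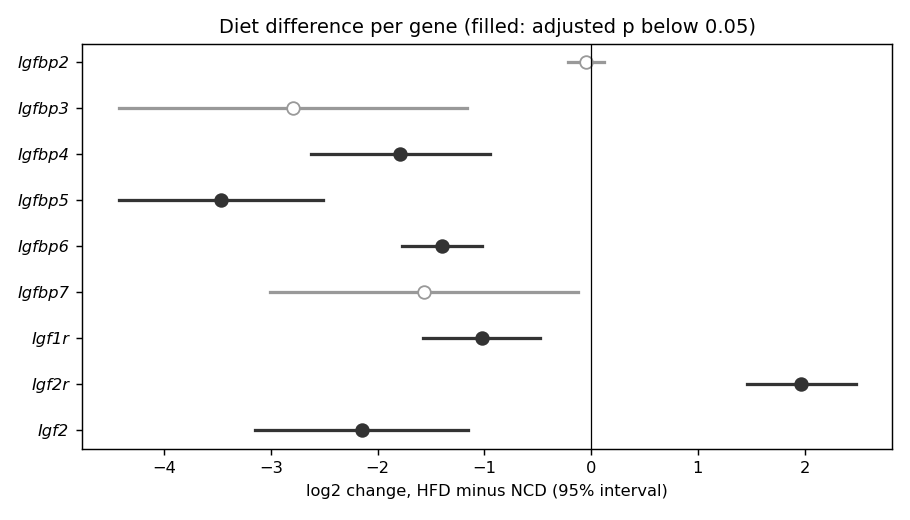
Log2 change, HFD minus NCD (x axis), of each gene with its 95% interval from limma, with filled points for genes called at an adjusted p below 0.05. Igfbp5 is lowest at −3.47 and Igf2r is the single gene to the right of 0, at 1.97.

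Igfbp5, which encodes a binding protein that associates with extracellular matrix, showed the largest difference of the 9. It stood at 8.52, 7.67 and 7.25 on HFD1 to HFD3, against 10.94, 10.95 and 11.95 on NCD1 to NCD3. The highest HFD value lay 2.42 log2 units below the lowest NCD value. Igfbp5 averaged 7.81 ± 0.65 in HFD and 11.28 ± 0.58 in NCD arrays (SD, n = 3 each), and fell 11.1-fold (−3.47 ± 0.40, adjusted p = 0.00790). Its call held without each array in turn, at changes of −3.82 to −3.13.

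Igfbp6, whose product prefers IGF2 over IGF1, changed less but with a small spread. It was at 6.83, 6.33 and 6.79 on HFD1 to HFD3, against 8.21, 7.95 and 7.99 on NCD1 to NCD3. The NCD arrays lay within 0.26 of each other, all above the HFD arrays. Igfbp6 fell 2.63-fold (−1.40 ± 0.16, adjusted p = 0.00745), called without each array in turn at −1.49 to −1.24.

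Igfbp4, whose product holds IGF back from its receptor until the protease PAPP-A cleaves it, was at 10.29, 10.03 and 9.88 on HFD1 to HFD3, against 11.11, 11.89 and 12.56 on NCD1 to NCD3. The groups did not overlap, and the NCD arrays were spread over a wider range than the HFD arrays. Igfbp4 fell 3.46-fold (−1.79 ± 0.35, adjusted p = 0.0317). This call was lost without HFD1, HFD2, HFD3 or NCD2, at adjusted p up to 0.136. The change ranged between −2.16 and −1.44 when single arrays were dropped.

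Igfbp3 encodes the main IGF carrier of serum. Its values were 7.58, 6.85 and 6.89 on HFD1 to HFD3, against 8.41, 9.95 and 11.32 on NCD1 to NCD3. All HFD values were below all NCD values, but NCD1 and NCD3 were far apart, and the difference was not called (−2.79 ± 0.68, adjusted p = 0.0588). Igfbp3 was called without NCD1 (−3.53, adjusted p = 0.00749), with array weights (−2.84, adjusted p = 0.0162) and with genes below background left out (−2.79, adjusted p = 0.0409).

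Igfbp7 encodes a related secreted protein of low IGF affinity that is abundant in vessel walls. It was at 15.58, 14.32 and 13.87 on HFD1 to HFD3, against 15.07, 16.38 and 17.02 on NCD1 to NCD3. The groups overlapped, with HFD1 above NCD1. The difference was not called (−1.57 ± 0.60, adjusted p = 0.172), and was called without NCD1 (−2.11, adjusted p = 0.0440).

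Igfbp2, whose product is a major circulating IGF carrier, lay below background on every array, at 5.04, 5.05 and 5.11 on HFD1 to HFD3 and at 5.17, 5.16 and 5.02 on NCD1 to NCD3. Background is the level of 6.23 below which 95% of the array's 23 antigenomic probe sets fall, averaged over arrays. Igfbp2 was not detected above it in either diet, and its change of −0.05 ± 0.07 (adjusted p = 0.739) had a 95% interval of −0.22 to 0.12. The sign of this change turned with median centring of the arrays (0.04).

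Of the receptors, Igf2r was higher after HFD. It was at 13.72, 13.72 and 14.13 on HFD1 to HFD3, against 11.50, 12.00 and 12.17 on NCD1 to NCD3. The lowest HFD array lay 1.55 log2 units above the highest NCD array. Igf2r averaged 13.86 ± 0.24 in HFD and 11.89 ± 0.35 in NCD arrays (SD, n = 3 each) and rose 3.92-fold (1.97 ± 0.21, adjusted p = 0.00691). It was called without each array in turn, at changes of 1.77 to 2.11.

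Igf1r, the signalling receptor, moved the other way. It was at 8.84, 8.50 and 8.64 on HFD1 to HFD3, against 9.18, 9.90 and 9.98 on NCD1 to NCD3. The groups did not overlap, with NCD1 nearest to the HFD arrays. Igf1r fell 2.04-fold (−1.03 ± 0.23, adjusted p = 0.0457), close to the threshold: of the fits without 1 array it was called only without NCD1, and it was not called with median centring (−0.94, adjusted p = 0.0542).

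Igf2 encodes the ligand that both receptors bind. It was at 6.29, 5.84 and 6.04 on HFD1 to HFD3, against 7.50, 7.92 and 9.20 on NCD1 to NCD3. HFD2 and HFD3 were below the background level and HFD1 just above it, while all NCD arrays were above it, so the size of the fall is uncertain. Igf2 fell 4.44-fold (−2.15 ± 0.42, adjusted p = 0.0308), a call lost without HFD1, HFD2, HFD3 or NCD2.

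Macrophages were the labelled cell type, and their defining markers were high on every array, with the selection marker gene Adgre1 at 16.54, 16.55 and 16.70 on HFD1 to HFD3, against 16.08, 15.93 and 15.05 on NCD1 to NCD3. RNA of other cells was also present. All 14 measured endothelial and 12 of 13 measured smooth muscle and pericyte markers had a mean above background, as did 11 of 13 fibroblast and progenitor and 6 of 12 mesothelial markers. The level of a list on an array is given here as the mean deviation of its genes from their means over the 6 arrays. In bulk RNA, fewer cells of a type and less RNA per cell cannot be told apart.

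The endothelial list was at −0.04, −1.44 and −1.48 on HFD1 to HFD3, against −0.46, 1.47 and 1.94 on NCD1 to NCD3. HFD1 was above NCD1, as in Igfbp7. By limma 0 of the 14 endothelial genes were called, and 12 had an unadjusted p below 0.05. The smooth muscle and pericyte list was at −0.70, −1.39 and −1.63 on HFD1 to HFD3, against 0.23, 1.21 and 2.28 on NCD1 to NCD3. Of its 13 measured genes 7 fell and 0 rose, with 10 at an unadjusted p below 0.05. The 4 of smallest adjusted p encode contractile proteins: Myl9 (−4.76 ± 0.62, adjusted p = 0.0107), Myh11 (−4.53 ± 0.59, adjusted p = 0.0108), Acta2 (−4.66 ± 0.67, adjusted p = 0.0133) and Tagln (−4.31 ± 0.79, adjusted p = 0.0263).

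Lists of other cells were also set beside the diets. Of 8 adipocyte, 5 neutrophil, 4 T cell, 4 B cell and 5 dendritic cell genes, limma called 0, with 3, 0, 1, 0 and 2 at an unadjusted p below 0.05. Mast cell genes rose in 4 of 5 cases, with the list at 0.98, 0.57 and 0.25 on HFD1 to HFD3, against −0.52, −0.58 and −0.70 on NCD1 to NCD3. The mast cell protease gene Cpa3 rose by 2.66 ± 0.46 (adjusted p = 0.0224). An eosinophil gene rose in 1 of 5 cases, and of 8 macrophage genes 2 rose and 1 fell. The neutrophil list stood at 2.13 on HFD3 and at 0.60 or below on the other arrays.

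**Figure D3:**
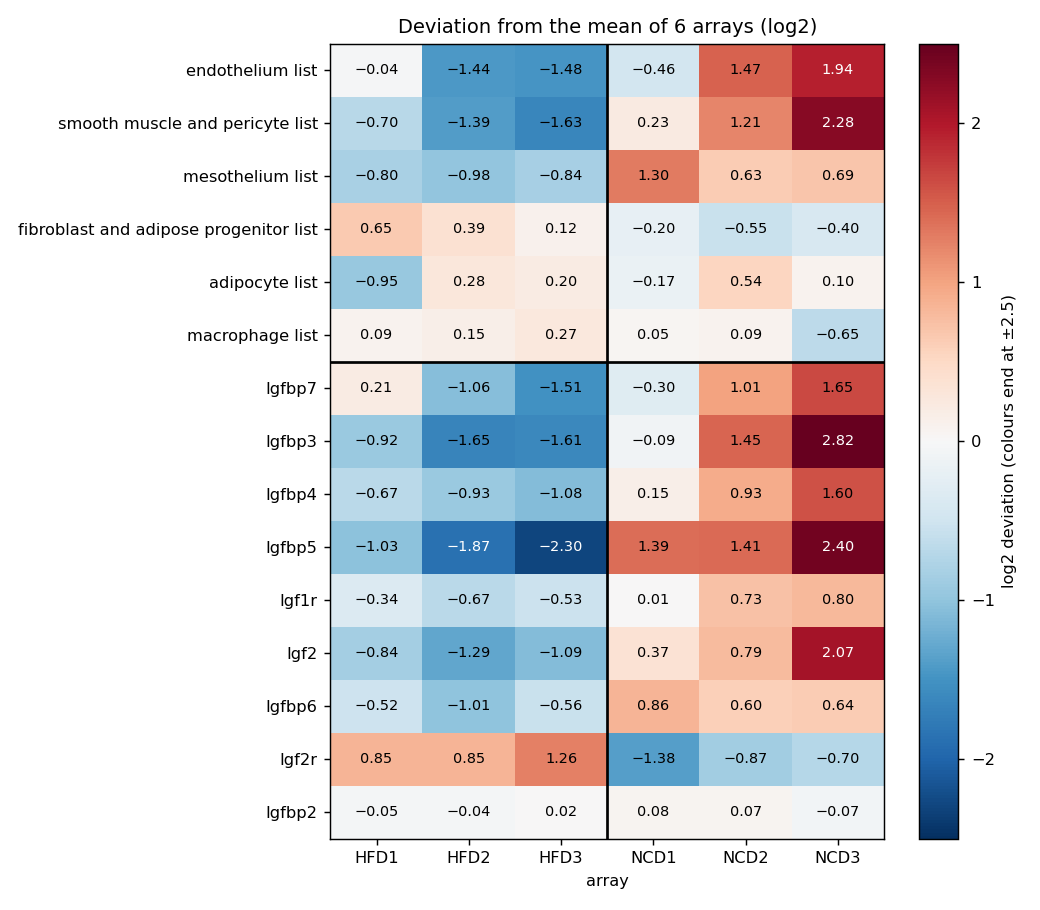
Deviation of 6 marker lists (above the line) and the 9 genes (below it) from their mean over the 6 arrays, in log2 units, with HFD arrays left of NCD arrays and red for higher. Igfbp7, Igfbp3 and Igfbp4 run with the endothelial and smooth muscle lists from array to array, Igfbp6 has its highest value on NCD1 as the mesothelial list does, and Igf2r is higher in HFD.

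To see which genes followed stromal genes on single arrays, the diet difference was set aside: the deviations from the diet means over the 6 arrays were correlated with those of each list. These r values are descriptions over 6 arrays that share diet groups and preparation, and no p is given. Among 6 lists the highest r belonged to the endothelial or the smooth muscle list in 7 of the 9 genes, as in 25.2% of all genes. The 7 include Igf2r, whose r of 0.55 was reached by 17.9% of all genes. The same 7 genes had the order NCD3, NCD2, NCD1 of both of those lists, an order shown by 18.1% of all genes. The order of those lists in both diets was found in 3 of them, Igfbp4, Igfbp5 and Igfbp7, against 4.2% of all genes. Igfbp3, Igf1r, Igf2r and Igf2 had another HFD order. HFD2 and HFD3 lay close together, at −1.44 and −1.48 in the endothelial list and at 6.85 and 6.89 in Igfbp3. Igf2 was below background on both, so for Igfbp3 and Igf2 the HFD order is uncertain.

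Igfbp7 had its highest r with the endothelial list (0.97), a value reached by 1.47% of all genes. Its r with the smooth muscle list was close to that, at 0.94. Nearness was measured by the root mean square difference of values centred on each gene's mean over the 6 arrays. Unlike r, it includes the diet difference, so nearest genes share a gene's change by selection. The 3 genes nearest to Igfbp7 were Cd34 (0.09 log2), Tshz2 (0.12) and Pecam1 (0.15). Cd34 and Pecam1 encode surface proteins of endothelium, though Cd34 is not specific to it. Igf1r likewise had its highest r with the endothelial list (0.95, reached by 2.41% of all genes), against 0.87 with the smooth muscle list. Its nearest genes were BC023105, Gadd45g and Lpar6.

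Igfbp3 and Igfbp4 followed the smooth muscle and pericyte list most closely, at r = 0.98 each, which 0.899% and 0.624% of all genes reached. With the endothelial list r was 0.92 for Igfbp3 and 0.91 for Igfbp4. The endothelial and smooth muscle lists had the same order of arrays in both diets, so these arrays hardly separate them. The genes nearest to Igfbp4 were Lmod1, a smooth muscle leiomodin (0.05 log2), the kinase gene Bmx (0.08) and Slco3a1 (0.09). Those nearest to Igfbp3 were Ppp1r14a, which encodes an inhibitor of myosin phosphatase in smooth muscle, the endothelin gene Edn1 and Mustn1. Igf2 (r = 0.93, nearest Pde3a, Cap2 and the muscle calsequestrin gene Casq2) and Igfbp5 (r = 0.85, nearest Fmo2, Npy1r and Map3k7cl) were also closest to that list, though for Igfbp5 7.88% of all genes had an r as high. Lmod1 (5.74, 5.54 and 5.40) and Casq2 (6.12, 5.97 and 5.96) were below background on HFD1 to HFD3. Only their NCD values brought their means above background, as the choice of nearest genes required.

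Igfbp6 was not like the vascular lists, with r = −0.10 for the endothelial and −0.19 for the smooth muscle list. Its highest r was with the mesothelial list (0.66, reached by 16.8% of all genes). Igfbp6 alone of the 9 had the order of that list in both diets, NCD1, NCD3, NCD2 and HFD1, HFD3, HFD2, which 1.55% of all genes had. In both diets this order rests on small gaps. HFD1 and HFD3 were at 6.83 and 6.79 in Igfbp6 and at −0.80 and −0.84 in the list. NCD3 and NCD2 were at 7.99 and 7.95 in Igfbp6 and at 0.69 and 0.63 in the list. Mesothelial genes were at −0.80, −0.98 and −0.84 on HFD1 to HFD3, against 1.30, 0.63 and 0.69 on NCD1 to NCD3. All 12 of the measured mesothelial genes fell, among them the keratin genes Krt19 (−1.12 ± 0.08, adjusted p = 0.00222) and Krt8 (−1.03 ± 0.08, adjusted p = 0.00288), the uroplakin gene Upk1b (−3.34 ± 0.28, adjusted p = 0.00359) and Nkain4 (−1.05 ± 0.09, adjusted p = 0.00444). Of the 12, 9 were below background on every HFD array, Krt19, Krt8 and Nkain4 among them. The size of their fall and the order of the list within HFD are therefore uncertain. Krt19 and Krt8 also had a mean over all arrays below background. The genes nearest to Igfbp6 were Rspo1, which encodes a Wnt signalling enhancer, the microRNA gene Mir23a and the complement gene C2. C2 was below background on every HFD array, and only its NCD values brought its mean above it.

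The fibroblast and adipose progenitor list went both ways, with more genes higher in HFD. Its level was at 0.65, 0.39 and 0.12 on HFD1 to HFD3, against −0.20, −0.55 and −0.40 on NCD1 to NCD3, and 7 of its 13 measured genes rose and 0 fell, with 10 at an unadjusted p below 0.05. The proteoglycan gene Lum rose by 2.55 ± 0.25 (adjusted p = 0.00522) and the collagen gene Col1a1 by 1.95 ± 0.24 (adjusted p = 0.00910), and the matrix genes Dpt and Mfap5 by 1.40 ± 0.18 and 1.35 ± 0.20 (adjusted p = 0.00981 and 0.0139). Among those not called, Dcn (−0.88 ± 0.29, adjusted p = 0.126) and the progenitor marker Dpp4 (−1.42 ± 0.45, adjusted p = 0.112) had all HFD values below all NCD values, and Pi16 and Serpinf1 overlapped between diets. No more than r = 0.59, for Igfbp5, was found between this list and any of the 9 genes.

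Igf2r followed none of the stromal lists closely. Its r was 0.55 for the smooth muscle, 0.53 for the endothelial, −0.71 for the mesothelial and −0.75 for the fibroblast list. Nor did it follow the macrophage list, with r = −0.42, which 77.9% of all genes reached. Igf2r was higher in HFD, as the fibroblast and mast cell lists were, while the vascular and mesothelial lists were lower there. The genes nearest to it were the adenylate cyclase gene Adcy3 (change of 2.01), the kinase gene Frk (1.81) and Mocos (1.95). Their rise follows from how they were selected and is no separate result. The macrophage marker list was at 0.09, 0.15 and 0.27 on HFD1 to HFD3, against 0.05, 0.09 and −0.65 on NCD1 to NCD3, so NCD3 stood lowest in that list. Igfbp2 had r = 0.97 with the macrophage list, but it was below background and its values spanned no more than 0.15 within a diet, and no expression is read from it. Its nearest genes were Dtx2, Gm16071 and Kcne1l, none of them called.

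**Figure D4:**
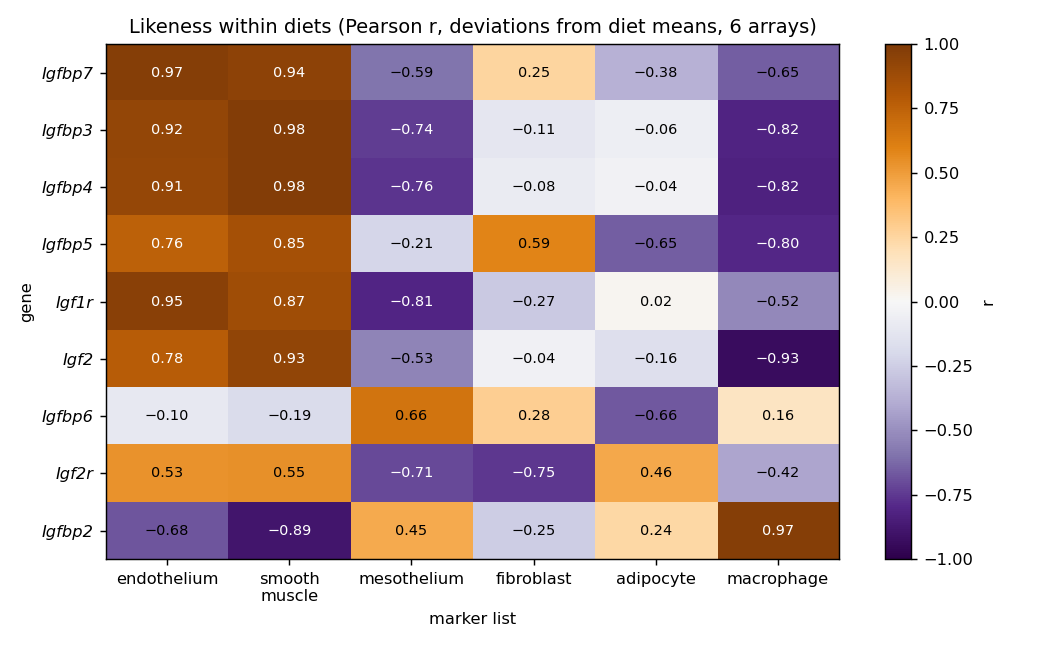
Pearson r (colour and number) between each gene (rows) and each marker list (columns), from deviations from the diet means on the 6 arrays. Igfbp7, Igfbp3, Igfbp4, Igf1r and Igf2 exceed 0.85 for the smooth muscle list, Igfbp6 is at −0.19 there and at 0.66 for the mesothelial list, and Igf2r is at 0.55 or below for every list.

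The diet difference was also fitted with the level of a list as a covariate, which asks what difference is left at a given list level. Only the endothelial list had levels that overlapped between diets, with HFD1 at −0.04 and NCD1 at −0.46. In the smooth muscle, mesothelial and fibroblast lists no HFD array was at the level of an NCD array. The fits with those lists therefore extend beyond the levels measured in either diet. With the endothelial list Igf2r rose by 2.26 (adjusted p = 0.0237), Igfbp5 fell by 2.61 (adjusted p = 0.0406) and Igfbp6 by 1.44 (adjusted p = 0.0462), and these were the 3 of the 9 genes called. The change was −0.89 for Igfbp4 (adjusted p = 0.169), −0.44 for Igf1r (adjusted p = 0.283), −1.22 for Igf2 (adjusted p = 0.242), −0.99 for Igfbp3 (adjusted p = 0.369) and 0.12 for Igfbp7 (adjusted p = 0.909). With the smooth muscle list, a setting chosen after the values were seen, 0 of the 9 genes were called by limma and 4 had an unadjusted p below 0.05. The changes then were 2.48 for Igf2r, −1.85 for Igfbp5, −1.52 for Igfbp6, −0.16 for Igfbp4 and 0.45 for Igfbp3. With the mesothelial list 0 of the 9 were called by limma and 5 had an unadjusted p below 0.05. Igfbp6 was then at −0.47 (adjusted p = 0.762) and Igf2r at 0.60 (adjusted p = 0.761), while Igfbp3 was at −7.87, Igfbp4 at −4.41 and Igf1r at −2.76 (adjusted p = 0.255 each). Diet accounted for 94% of the variance of the mesothelial list level over arrays, 81.3% of the fibroblast, 78.3% of the smooth muscle and 56% of the endothelial one. List level and diet can thus hardly be told apart for the mesothelial list, and only poorly for the fibroblast and smooth muscle lists. The part of other cells in the differences of these genes was not tested beyond these values.

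The other genes of the IGF system were taken from lists by role. Of 61 genes 51 were measured, 9 rose, 3 fell and 39 were not called, with a median change of 0.08 (22 at an unadjusted p below 0.05). Over all genes 4.96% were called higher and 2.87% lower. Among genes with a mean above background, as 37 of the 51 were, the shares were 8.73% and 4.59%. The 10 genes not measured are not analysed here. The ligand gene Igf1 was at 12.81, 13.04 and 12.85 on HFD1 to HFD3, against 12.21, 11.98 and 11.83 on NCD1 to NCD3. All HFD values were above all NCD values, and Igf1 rose 1.86-fold (0.89 ± 0.14, adjusted p = 0.0168), called without NCD1 or NCD3 and not without any other array. The ligands thus differed in direction, with Igf1 higher and Igf2 lower.

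The remaining carriers were not above background: Igfbp1 (0.12 ± 0.12), the acid-labile subunit gene Igfals (−0.01 ± 0.13) and Igfbpl1 (0.01 ± 0.06) were not called. Of 11 secreted proteins related to the binding proteins by their amino-terminal domain or partly so, 3 fell and 0 rose, with 5 at an unadjusted p below 0.05. They were the matricellular genes Ccn1 (−4.91 ± 0.75, adjusted p = 0.0160) and Ccn3 (−2.38 ± 0.44, adjusted p = 0.0273) and the serine protease gene Htra1 (−1.45 ± 0.29, adjusted p = 0.0348). Ccn1, Ccn3 and Htra1 had values on NCD3 above those on NCD1, as the vascular lists had, and each was called in 2 or 3 of the 6 fits without 1 array. The IGFBP4 protease gene Pappa was below background in both diets, and among 5 proteases and stanniocalcins the metalloprotease gene Adam9 alone was called (0.58 ± 0.12, adjusted p = 0.0412). Of the fits without 1 array Adam9 was called only without NCD1 (adjusted p up to 0.173 in the others).

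In the signalling arm behind the receptors, 0 of 9 adaptors and related genes were called by limma (3 at an unadjusted p below 0.05), and Irs2 was at −0.61 ± 0.18 (adjusted p = 0.0962). Of 13 genes of the phosphoinositide 3-kinase and AKT route, 2 rose. The catalytic subunit gene Pik3cb was at 12.22, 12.25 and 12.31 on HFD1 to HFD3, against 11.15, 11.05 and 10.90 on NCD1 to NCD3. Its values did not overlap, and it rose 2.33-fold (1.22 ± 0.11, adjusted p = 0.00470), called without each array in turn. The growth inhibitor gene Tsc1 rose by 0.56 ± 0.10 (adjusted p = 0.0264), called in 1 of the 6 fits without 1 array, that without NCD1 (adjusted p up to 0.124 in the others). The transcription factor gene Foxo1, which insulin and IGF signals keep out of the nucleus, was at −1.69 ± 0.41 (adjusted p = 0.0590).

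Igf2r was set beside other genes of the mannose 6-phosphate route, in which lysosomal enzymes receive a sugar tag in the Golgi and are carried to endosomes by 2 receptors. Of 7 other genes of that route 5 rose, 0 fell and 2 were not called (6 at an unadjusted p below 0.05), with a median change of 0.64. All 7 had a mean above background, where 8.73% of genes were called higher, against 4.96% of all genes. In all 7 the HFD values lay above the NCD values, against 17.6% of all genes. Within NCD the route and Igf2r had opposite orders: the list was at −0.24, −0.30 and −0.50 on NCD1 to NCD3, whereas Igf2r was lowest on NCD1 and highest on NCD3. Gnptab, the phosphotransferase subunit that starts the tag, was at 12.62, 12.78 and 12.92 on HFD1 to HFD3, against 11.72, 11.30 and 11.14 on NCD1 to NCD3. It rose 2.62-fold (1.39 ± 0.18, adjusted p = 0.0103), and Nagpa, which uncovers the tag, rose by 0.64 ± 0.12 (adjusted p = 0.0253).

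M6pr, the smaller, cation-dependent receptor, was at 14.82, 14.93 and 15.02 on HFD1 to HFD3, against 14.46, 14.19 and 13.91 on NCD1 to NCD3, and rose by 0.73 ± 0.16 (adjusted p = 0.0403). Its change was smaller than that of Igf2r in size, a difference between genes that was not tested. Of the adaptors that load both receptors into vesicles, Gga2 rose by 0.90 ± 0.17 (adjusted p = 0.0284) and Gga1 by 0.59 ± 0.13 (adjusted p = 0.0434), while Gga3 was at 0.40 ± 0.13 (adjusted p = 0.112). The phosphotransferase subunit Gnptg was at 0.24 ± 0.10 (adjusted p = 0.226). Gnptab was called without HFD1, NCD1 or NCD3, and the other 4 only without NCD1, among fits without 1 array.

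**Figure D5:**
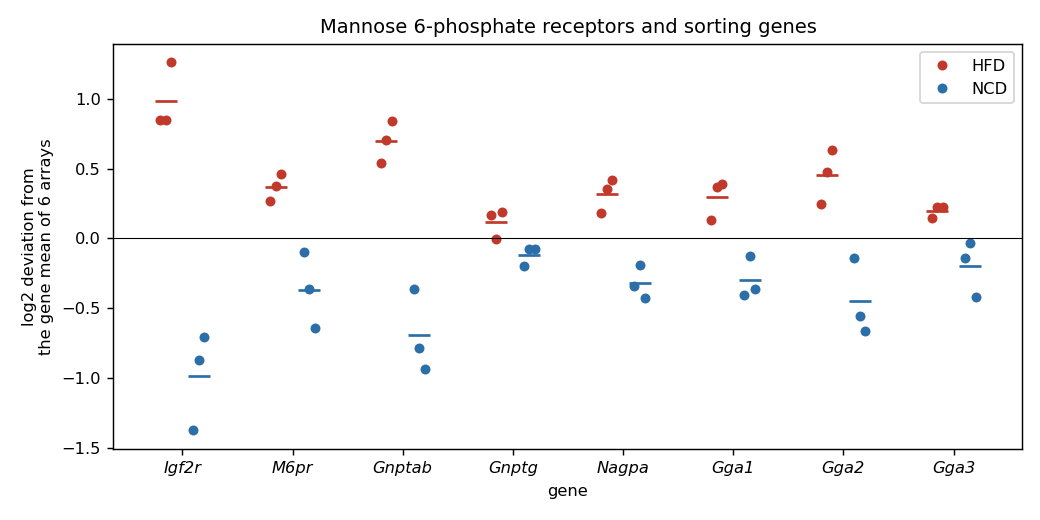
Log2 deviation from each gene's mean over the 6 arrays (y axis) for Igf2r and 7 genes of mannose 6-phosphate sorting (x axis), with 3 HFD points in red left of 3 NCD points in blue and a bar at each group mean. In every gene shown the HFD points lie above the NCD points, furthest apart in Igf2r.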

How the data were processed

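RNA of F4/80+ fat macrophages was measured on 6 Affymetrix arrays, 3 HFD and 3 NCD pools. The values the authors deposited are log2 expression per transcript cluster. Tools named in the submitters' processing notes are RMA, Transcriptome Analysis Console 3.1.0.5 and Affymetrix Expression Console 1.4.1.46. The role of each and the genome build are not given in the sources used here. Of 65956 clusters (6732 control probe sets left out), 30604 carried 1 gene symbol, 2146 several and 33206 none. Symbols were updated by Entrez identifier in 827 cases. The row with the highest mean was kept per gene, giving 30142 genes. Genes on rows with several symbols are not analysed here. Array medians were 5.79 to 5.86.

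Diets were compared with limma 3.58.1 (lmFit, eBayes with trend) in R 4.3.3, two-sided, with Benjamini-Hochberg adjustment over all 30142 genes. The script was tested on simulated data. Arrays carry no read depth, so the number of arrays limits precision: the median standard error was 0.12. Same-numbered HFD and NCD arrays had deviations correlated at −0.46, −0.12 and −0.15, so no likeness by number was seen, and the main fit has no pairing. Whether same-numbered arrays shared a preparation was not tested. The named genes were the 9 genes, the called genes of the IGF lists, the 3 nearest genes above background for each and the called stromal markers of smallest adjusted p. Other genes named from the lists were chosen after their values were seen. Genes and lists were chosen with earlier results of these data known. Tables and figures used Python 3.11.15, pandas 2.3.3 and matplotlib 3.10.9.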

Additional observations from a re-analysis of the deposited data

How the results depend on the processing

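Igf2r was called higher, and Igfbp5 and Igfbp6 lower, in all 6 fits without 1 array. Without 1 array the number of the 9 genes called lower ran from 2 to 7, with 1 higher in each. IGF list genes ran from 1 to 11 higher and from 0 to 9 lower, and all genes from 442 to 4713, with fewer calls than the 2359 without NCD2, HFD1, HFD2, HFD3 or NCD3 and more without NCD1. Fits without 1 array also have fewer residual degrees of freedom.

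With the replicate block 144 genes were called, 1 of the 9 lower, 1 higher, and 0 IGF list genes either way (limma, 23 at an unadjusted p below 0.05). No likeness by number was seen, since 0 of 6 arrays correlated best with their own number, but a shared preparation was not tested. Array weights called 4282 genes and 8 IGF list genes lower, and leaving out genes below background called 5 of the latter lower. The endothelial covariate called 567 genes, 2 of the 9 lower, and 2 IGF list genes higher and 1 lower. The fibroblast and the mesothelial covariate each called 0 genes by limma (2875 and 4510 at an unadjusted p below 0.05), thus 0 of the 9 and 0 IGF list genes either way. The smooth muscle covariate, added after seeing the data, called 57 genes and 0 of the 9 or of the IGF list genes (4 and 6 at an unadjusted p below 0.05).

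Direction turned in 3 genes that were never called in the full fit. Igfbp2 was at 0.0402 with median centring, 0.0052 with the fibroblast and 0.13 with the mesothelial covariate. Igfbp3 was at 0.45 with the smooth muscle covariate, and Igfbp7 at 0.12 with the endothelial and 1.18 with the smooth muscle one. Without a trend, with centring, quantile normalization, all rows or the mean over rows, 4 or 5 of the 9 were called lower and 1 higher. Median centring moved the median of all genes to 0.10. The causes were not tested. Signal near background limits Igfbp2, Igf2, most mesothelial genes and, on HFD2, Igfbp6.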
